A study of Mus musculus with 9 samples.

Results

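Glucose uptake, glycolysis, lactate handling and the response to low oxygen were followed through 38 listed genes in mesenchymal cells of 3 mouse tissues. The genes were listed by function, not by a measured value, but earlier results of these data were known when they were chosen. All 38 were found among the 23420 genes of the deposited read count tables. RNA was sequenced in 9 libraries, 3 from thymus, 3 from bone (pelvis, femur and tibia) and 3 from the dermis of the trunk (back and abdomen). All came from C57BL/6 mice of 3 to 4 weeks with no mutant allele or treatment named, and cells were used directly after digestion and sorting, with at least 25000 cells per sample. The sort kept cells that carried SCA1, which marks many stromal and progenitor cells on their surface, and that were negative for CD31, EpCAM, CD45, TER119, CD41, B220, GR-1, CD11b, CD4 and CD2. The labels do not say that libraries of 1 tissue came from different animals; the p-values therefore speak only of the spread among the samples at hand, and that spread may be technical. They name the thymus libraries 2, 3 and 1-3 and leave the last name unexplained. If it is a pool, it shares material with the other thymus libraries.

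Glycolysis breaks glucose down to pyruvate in the cytosol. Cells take glucose up through facilitative transporters of the Slc2a family, trap it by phosphorylation with a hexokinase, and either pass the pyruvate to the mitochondria or reduce it to lactate, which leaves through monocarboxylate transporters of the Slc16a family. Low oxygen shifts this balance through the hypoxia-inducible factors (HIFs). When oxygen is present, prolyl hydroxylases of the Egln family mark the HIF alpha subunits for destruction; when it is short, the subunits accumulate, pair with Arnt and activate genes for glucose uptake, glycolysis, lactate export and mitophagy. The HIF subunits are regulated mainly as proteins, so their mRNA is not a measure of HIF activity. Bone marrow, cartilage and skin hold regions of low oxygen, and skeletal and dermal mesenchymal cells are known to rely on glycolysis. Thymus is not covered by this background, which therefore does not place its oxygen level above or below that of bone or skin. The part of oxygen in any difference between the tissues was not tested.

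Levels are given in CPM, the read count of a gene relative to its library's total after scaling by a TMM factor, which adjusts for composition. A gene was called when edgeR's quasi-likelihood test over all 15635 genes tested gave a Benjamini-Hochberg adjusted p under 0.05. Gene reads per library ranged from 78757872 to 116759235. The collagen genes Col1a1, Col1a2 and Col3a1 together took 24.4 ± 0.774% of the gene reads of skin, against 6.64 ± 0.34% in bone and 4.45 ± 0.365% in thymus (SD, n = 3). Without the TMM factor the median gene moved by 0.656 on the log2 scale in thymus against skin and by 0.722 in bone against skin, so differences from skin are given relative to the TMM-scaled median. Pdgfra, a receptor gene of mesenchymal cells, averaged 1160 ± 37.7 CPM in thymus, against 737 ± 59.0 in bone, and between 695 and 869 in the skin libraries. Ly6a, which encodes SCA1, was present in all 9 libraries, from 240.1 CPM in bone to 1381 in skin. The lowest and highest sums of 12 myeloid marker genes were 3024 and 4155 CPM in bone, 16.3 and 49.5 in thymus and 22.1 and 71.2 in skin.

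All 38 genes passed the filter on low counts. Fbp1 and Fbp2 passed it through skin, where their levels were highest. Their calls and places below are therefore not independent of the filter. More members were lower than higher in thymus than in bone, and the same held against skin on the TMM scale but not with library size alone. Against bone, 5 of the 38 genes were higher in thymus and 16 lower, and 55.3% were called in all, against 32.6% of all genes tested (16.5% higher, 16.1% lower). Against skin, 6 were higher and 15 lower, again 55.3%, against 37.6% of all genes tested (19.3% higher, 18.3% lower). Between bone and skin, 9 were higher in bone and 9 lower, which is 47.4% against a background of 47.1% (23.7% higher, 23.4% lower). Without thymus library 2 the 16 lower in thymus than in bone became 9, and without bone library 3 the 9 lower in bone than in skin became 5. The 16 also fell with a replicate block, which adds a term for the library number to the fit, as given at the end. Number 1-3 is held by 1 library alone, so the block in effect sets that thymus library aside. The fall therefore cannot be read as an adjustment for library number alone. The median log2 difference of the members was -0.49 in thymus against bone, -0.49 in thymus against skin and -0.05 in bone against skin, beside medians of 0.02, 0.03 and 0.03 over all genes tested. With library size alone as the scale, 12 were higher and 8 lower in thymus against skin, and 20 higher and 3 lower in bone against skin.

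At a difference of at least 2-fold, 3 members were higher and 9 lower in thymus than in bone, 12 in all, beside 8.84% higher and 11% lower of all genes, 19.9% together. In thymus against skin 5 were higher and 9 lower, 14 in all, beside 12.2% and 9.81% of all genes, 22.1% together. In bone against skin 8 were higher and 3 lower, 11 in all, beside 16.4% and 12.1%, 28.4% together. Counting genes that differed by at least 2-fold from both other tissues, 7 members (18.4%) were lowest in thymus, namely Hk2, Slc16a1, Slc16a3, Pdk4, Bnip3, Car12 and Fbp1, against 3.83% of all genes tested. Epas1 and Egln3 were highest in thymus (background 4.05%). Slc2a3, Slc2a4 and Bnip3 were highest in bone (background 6.51%), and no member was lowest there (background 3.86%). Slc2a1, Car12 and Fbp2 were highest in skin (background 5%). Eno2, Epas1, Egln3, Ndrg1 and Ddit4 were lowest in skin, 13.2% of the members against 7.55% of all genes. In bulk RNA, fewer cells of a type and less RNA per cell cannot be told apart.

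**Figure D1:**
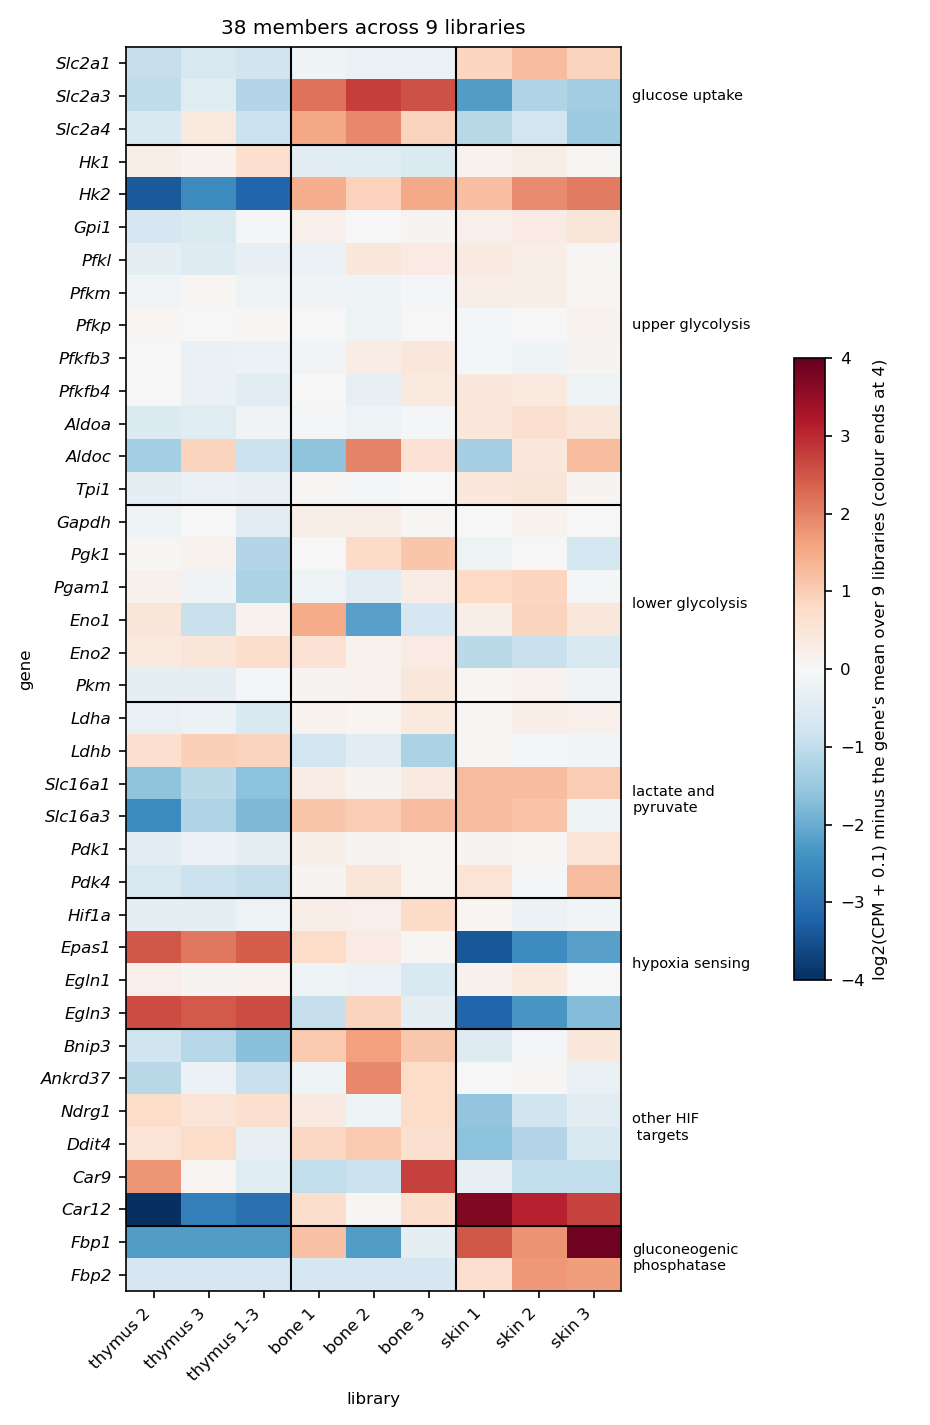
Each row is 1 of the 38 genes, grouped by role, and each column 1 library; the colour is log2(CPM + 0.1) minus the gene's mean over the 9 libraries and ends at 4 in either direction. Hk2, Slc16a1, Slc16a3 and Car12 are blue in all 3 thymus libraries, Epas1 and Egln3 are red there and blue in skin, and Slc2a3 is red in bone.

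Promoters were read for the members that show the opposite ends of this pattern, since HIF binds the core letters ACGTG or GCGTG. RefSeq windows of 250 bases before to 50 after a gene's start (build GRCm38.p6) were at hand for 34 of the 38 members. No window was at hand for Slc2a3, Slc2a4, Epas1 and Ndrg1. ACGTG or GCGTG on either strand lay in a window of 29 of the 34 genes (85.3%) and of 46.7% of all 27025 genes. A gene can have several windows, and per window the shares were 78.7% of 47 and 43.8% of 32851. ACGTG was held by 64.7% of the members and 21.8% of all genes, GCGTG by 58.8% and 35.2%, and a gene can hold both. The list was made to hold glycolysis genes and HIF targets, so a higher share may follow from how it was made. The median GC content was 61% in member windows and 52.7% in all windows, and the part of base composition in the higher share was not tested. A match describes letters, not a bound site. Shown are the windows of Hk2 and Slc16a3 (low in thymus), Bnip3 (low in thymus and highest in bone) and Egln3 (highest in thymus), each 5′ to 3′ on the gene's strand. Capitals mark ACGTG or GCGTG read on either strand, so CACGT and CACGC are the same letters on the opposite strand. Positions count bases before the start and give the first base of a match.
Hk2, chr6:82774405-82774704, minus strand, matches at -226 and -52: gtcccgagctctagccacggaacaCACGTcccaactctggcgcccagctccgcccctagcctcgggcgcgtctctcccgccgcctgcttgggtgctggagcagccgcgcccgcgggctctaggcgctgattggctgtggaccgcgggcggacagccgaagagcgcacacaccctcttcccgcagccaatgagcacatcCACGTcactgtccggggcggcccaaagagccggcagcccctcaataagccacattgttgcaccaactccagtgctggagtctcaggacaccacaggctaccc
Slc16a3, chr11:120948817-120949116, plus strand, matches at -27 and -14: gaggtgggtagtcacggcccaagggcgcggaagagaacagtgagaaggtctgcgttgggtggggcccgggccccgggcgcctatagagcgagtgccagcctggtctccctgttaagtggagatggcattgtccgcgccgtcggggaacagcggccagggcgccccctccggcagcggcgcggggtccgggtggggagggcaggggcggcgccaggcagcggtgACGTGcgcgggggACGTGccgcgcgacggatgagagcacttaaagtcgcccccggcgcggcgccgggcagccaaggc
Bnip3, chr7:138909457-138909756, minus strand, matches at -117, -108, -107, -99 and -35: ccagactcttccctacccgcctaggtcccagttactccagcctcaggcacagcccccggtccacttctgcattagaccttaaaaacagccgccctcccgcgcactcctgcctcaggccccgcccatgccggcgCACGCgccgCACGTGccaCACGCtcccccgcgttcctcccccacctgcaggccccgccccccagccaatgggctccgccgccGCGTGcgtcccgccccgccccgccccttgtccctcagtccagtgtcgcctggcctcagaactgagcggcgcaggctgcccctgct
Egln3, chr12:54203825-54204124, minus strand, match at -229: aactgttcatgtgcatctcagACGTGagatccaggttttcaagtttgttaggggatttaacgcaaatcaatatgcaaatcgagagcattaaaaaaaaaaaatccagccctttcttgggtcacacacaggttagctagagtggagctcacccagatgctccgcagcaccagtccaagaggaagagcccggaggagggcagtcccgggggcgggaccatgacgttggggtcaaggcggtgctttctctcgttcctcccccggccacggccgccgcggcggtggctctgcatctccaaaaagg
Hk2, Slc16a3 and Bnip3, called lower in thymus, and Egln3, called higher there, all hold the letters in this window. The matches of Bnip3 at -108 and -107 overlap in a palindrome. No match was found in the windows of Car12, Fbp1, Gpi1, Tpi1 and Eno2.

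The glucose transporters differed by tissue in which paralogue was high. Slc2a1, the basal transporter of most cells (chromosome 4, 119108745 to 119137329, build mm10), stood at 12.3, 14.8 and 13.2 CPM in thymus libraries 2, 3 and 1-3, at 20.6, 19.6 and 19.7 in bone and at 41.8, 55.8 and 42.9 in skin. The 3 tissues did not overlap, with skin highest and thymus lowest. The log2 difference was -1.80 ± 0.16 (SE) in thymus against skin (adjusted p = 4.51e-06), -1.23 ± 0.15 in bone against skin (adjusted p = 5.82e-05) and -0.57 ± 0.15 in thymus against bone (adjusted p = 0.0134). The last call was lost without thymus library 2 and with the replicate block.

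Slc2a3, a transporter of high glucose affinity known from neurons and blood cells (chromosome 6, 122727809 to 122742745), stood at 2.52, 3.61 and 2.25 CPM in thymus, 23.5, 35.5 and 30.5 in bone and 1.01, 2.17 and 1.92 in skin. Every bone library was far above all the others. It was higher in bone than in skin by 4.14 ± 0.33 on the log2 scale (adjusted p = 2.25e-06), and thymus was below bone at -3.42 ± 0.32 (adjusted p = 9.59e-06). Slc2a4, the insulin-responsive transporter of muscle and fat, stood at 0.747, 1.60 and 0.608 CPM in thymus, 3.65, 4.81 and 2.27 in bone and 0.495, 0.674 and 0.369 in skin. It was low everywhere and highest in the bone libraries. Bone exceeded skin by 2.80 ± 0.63 (adjusted p = 0.00338), and thymus was below bone at -1.86 ± 0.61 (adjusted p = 0.0351). The call against bone was lost without thymus library 2 or 1-3, without bone library 1 or 2, and with the replicate block.

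Markers of blood cells moved with the bone libraries. All 12 myeloid markers were called lower in thymus than in bone and 11 of the 12 higher in bone than in skin, and Elane, a neutrophil granule protease, was at 0 in all skin libraries. Hk3, a hexokinase of myeloid cells that is not among the 38 genes, averaged 18.6 ± 0.632 CPM in bone, against 0.0415 ± 0.058 in thymus and 0.676 ± 0.417 in skin (SD, n = 3). All 8 chondrocyte markers were also called higher in bone than in either other tissue, with sums of 1508 to 1703 CPM there, 15.4 to 25.5 in thymus and 10.9 to 14.3 in skin. The 8 adipocyte markers summed to 41.4 to 46.3 CPM in thymus, against 48.1 to 86.2 in bone and 49.3 to 75.2 in skin, with Lep, the leptin gene, at 0 in all libraries. Adipoq and Cfd, which encode the fat cell products adiponectin and adipsin, were the 2 adipocyte markers called between bone and the other tissues. Adipoq averaged 4.61 CPM in bone, against 0.861 in thymus and 0.376 in skin, and Cfd 6.51 CPM, against 0.134 and 0.248. The part of these cells in the bone levels of Slc2a3 and Slc2a4 was not tested.

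Per length, the mixture of transporters differed in the same way. Slc2a1 made up 83.7 ± 3.88% of the summed RPKM (reads per kilobase of transcript, scaled by library size) of the 3 transporters in thymus, 47.5 ± 5.66% in bone and 96.8 ± 0.522% in skin (SD, n = 3). Its share ran from 79.5 to 87.2% in thymus, from 41.8 to 53.1% in bone and from 96.5 to 97.4% in skin, with no overlap. An exact permutation test of the share over all arrangements of the 9 libraries gave p = 0.00357, the smallest it can give, and an adjusted p of 0.00982 over 11 gene families.

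The hexokinases set thymus apart from both other tissues. Hk2, the inducible hexokinase that is bound to mitochondria and responds to insulin and HIF (chromosome 6, 82725027 to 82774454), stood at 4.57, 8.19 and 5.27 CPM in thymus, 132.8, 90.8 and 137.3 in bone and 110.5, 180.5 and 203.4 in skin. The lowest bone or skin library was far above the highest thymus library, while bone and skin overlapped. The log2 difference was -4.32 ± 0.31 in thymus against bone (adjusted p = 3.69e-06) and -4.78 ± 0.32 in thymus against skin (adjusted p = 1.50e-06), and bone and skin differed by -0.45 ± 0.27 (adjusted p = 0.194).

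Hk1, the constitutive hexokinase (chromosome 10, 62268855 to 62379908), was not low in thymus. It stood at 130.9, 122.1 and 177.6 CPM in thymus, 81.3, 79.3 and 73.8 in bone and 122.7, 129.6 and 114.8 in skin. The bone libraries were below all others, and thymus and skin overlapped. Thymus exceeded bone by 0.88 ± 0.15 (adjusted p = 0.00078). Bone was below skin at -0.65 ± 0.15 (adjusted p = 0.00361), a difference that became 0.041 and lost its call with library size alone. Hk1 took 96.5 ± 1.53% of the RPKM of both hexokinases in thymus, 44.5 ± 6.10% in bone and 48.4 ± 8.48% in skin (SD, n = 3). Shares of 94.8 to 97.6% in thymus lay apart from 39.6 to 51.4% in bone and 40.8 to 57.6% in skin, which overlapped. The exact permutation test gave p = 0.0214, adjusted to 0.0471, and the adjusted p reached 0.0524 without bone library 1, 0.072 without bone library 3 and 0.0655 without skin library 1.

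Signs of another tissue or of cell handling were looked at beside this difference. The skeletal muscle markers were high in skin alone. Sums of 9 skeletal muscle markers were 19.2 to 46.6 CPM in skin, 2.07 to 3.07 in thymus and 2.22 to 3.96 in bone. Of the 8 that were tested, 6 were called lower in thymus against skin, all 8 lower in bone against skin and none between thymus and bone. Myh4, Ckm, Myog and Myod1 were at 0 in all thymus libraries, and Myh1, Myh4, Myog and Myod1 in all bone libraries. Sums of 15 genes known to respond to tissue digestion were 6449 to 8683 CPM in thymus, against 14870 to 17520 in bone and 24070 to 30190 in skin. All 15 were called lower in thymus than in skin, and 9 lower and 3 higher in thymus than in bone. Nr4a1, an immediate early gene, averaged 63.2 ± 21.6 CPM in thymus, against 974 ± 76.3 in bone and 680 ± 79.2 in skin (SD, n = 3). Jun, another such gene, was above bone in thymus, at 1446 ± 108 CPM against 1086.5 ± 98.6, with skin at 2584 ± 162. The part of muscle cells or of digestion in the level of Hk2 or of other members was not tested, and digestion and tissue cannot be told apart in this design.

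**Figure D2:**
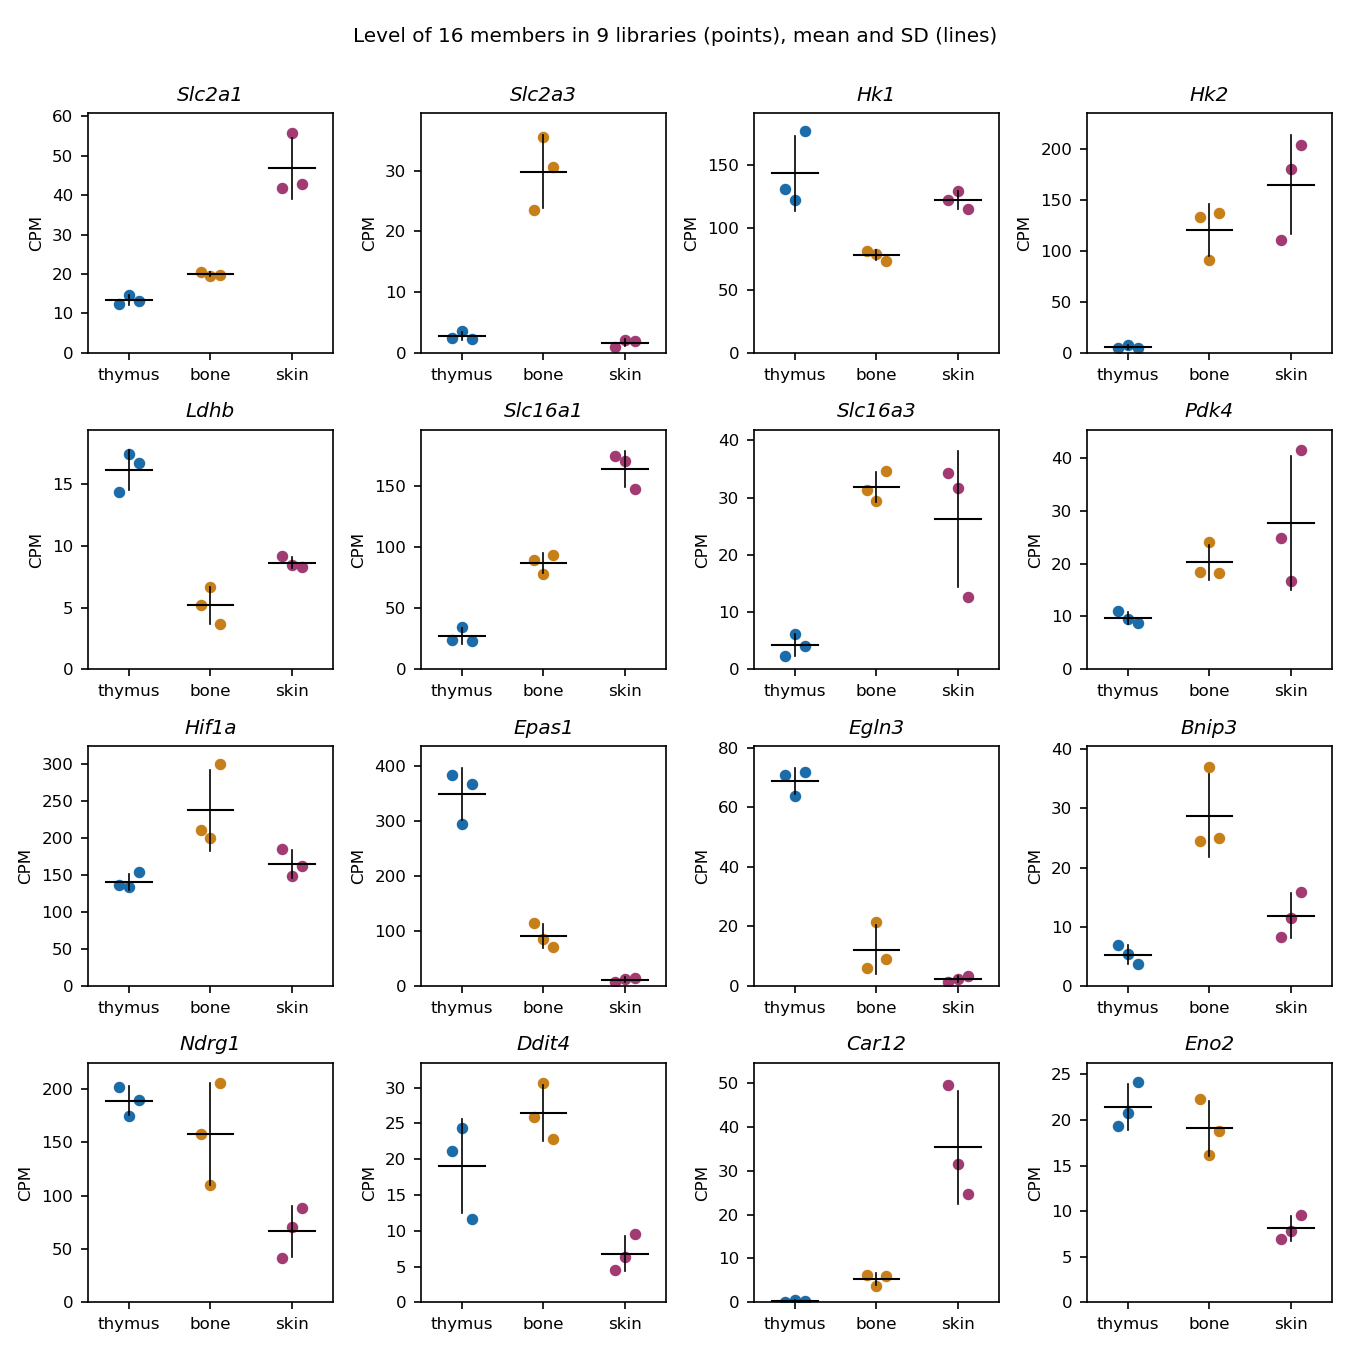
Level in CPM (vertical axes, each starting at 0) of 16 members in the 3 libraries of each tissue (points), with the mean and SD as black lines. Hk2 lies between 4.57 and 8.19 CPM in thymus and from 90.8 CPM up in bone and skin, while Epas1 and Egln3 have the opposite order.

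Apart from Hk2, no gene of upper glycolysis was called at a difference of 2-fold or more. Of the 11 genes of upper glycolysis, 1 was called higher and 3 lower in thymus than in bone, none higher and 5 lower in thymus than in skin, and none higher and 3 lower in bone against skin. Over all genes tested, 16.5% were higher and 16.1% lower in the first of these comparisons, 19.3% and 18.3% in the second and 23.7% and 23.4% in the third. Gpi1, which isomerises glucose 6-phosphate, averaged 141 ± 34.9 CPM in thymus, against 201 ± 15.7 in bone and 237 ± 22.8 in skin (SD, n = 3). Its log2 difference in thymus was -0.51 ± 0.17 against bone (adjusted p = 0.0375) and -0.75 ± 0.17 against skin (adjusted p = 0.00455). The first call was lost without thymus library 2 or 3, any bone library or skin library 2, and the second with library size alone. Aldoa, the main aldolase outside liver, averaged 184 ± 29.3, 219 ± 11.3 and 337 ± 26.3 CPM in thymus, bone and skin. It was lower in thymus than in skin, at -0.87 ± 0.14 (adjusted p = 0.00049), and lower in bone than in skin, at -0.62 ± 0.14 (adjusted p = 0.00345), and neither was called with library size alone, where bone against skin came to 0.065.

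Tpi1, triose phosphate isomerase, averaged 73.7 ± 3.63, 92.7 ± 4.38 and 118 ± 16.1 CPM in thymus, bone and skin, and was lower in thymus than in skin at -0.67 ± 0.13 (adjusted p = 0.00138), a call lost with library size alone. The call of bone below skin, at -0.34 ± 0.13 (adjusted p = 0.0429), held in 5 of 19 alternatives. The phosphofructokinase genes encode the committed step. Pfkp averaged 83.8 ± 3.23, 78.4 ± 7.0 and 83.2 ± 6.62 CPM in thymus, bone and skin, and Pfkm 29.0 ± 2.90, 28.2 ± 1.42 and 35.1 ± 2.76 CPM, with no call for either gene. Pfkl was lower in thymus, at 12.9 ± 0.98 CPM against 19.8 ± 4.64 in bone and 20.1 ± 2.02 in skin, with adjusted p of 0.031 and 0.0227. The call against bone was lost without any 1 thymus library, without bone library 2 or 3, or with the replicate block. That against skin was lost without thymus library 2 or 3, without skin library 1 or 2, or with library size alone.

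Pfkfb3 and Pfkfb4 make or remove fructose 2,6-bisphosphate, the activator of phosphofructokinase, and neither was called in any comparison. Pfkfb3 averaged 28.8 ± 2.99, 37.6 ± 7.13 and 31.1 ± 3.25 CPM in thymus, bone and skin, and Pfkfb4 14.4 ± 2.45, 17.4 ± 4.35 and 19.5 ± 4.42 CPM. Aldoc, the aldolase of brain, stayed at or below 1.32 CPM in all 9 libraries. The shares of Pfkp among phosphofructokinases, Pfkfb3 among its pair and Aldoa among aldolases gave adjusted p of 0.183, 0.483 and 0.704 by the exact permutation test.

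Gapdh, Pgk1, Pgam1 and Eno1, which carry the steps from glyceraldehyde 3-phosphate to phosphoenolpyruvate, could not be measured well from these counts. Gapdh lay between 3.2 and 5.2 CPM, Pgk1 between 1.0 and 5.3, Pgam1 between 1.3 and 6.0, and Eno1 between 0 and 1.2. Their median RPKM was 2.17, 1.36, 1.67 and 2.65, while the enzymes before and after them, Aldoa, Tpi1 and Pkm, stood at 121, 53.8 and 90.5. Of the 50-base windows of the longest Gapdh coding transcript in GENCODE M21, 82.5% also occurred in a transcript of 1 of 222 other genes, 213 of them pseudogenes. The share was 72.2% for Eno1, 68.0% for Pgk1 and 41.5% for Pgam1, and it was 30.5% for Pkm, 13.5% for Aldoa and 7.51% for Tpi1. How reads with several matches were counted is not stated in any source used here, and their part in the low counts was not tested. The Eno1 entry of the deposited tables covers only chromosome 4, 150237197 to 150237323, whereas its share of windows was taken over a transcript of 2027 bases. The share and the RPKM of Eno1 therefore describe different sequences. Neither can be set beside those of the other genes in the same way. None of the 4 genes was called in any comparison, and their values are uncertain.

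**Figure D3:**
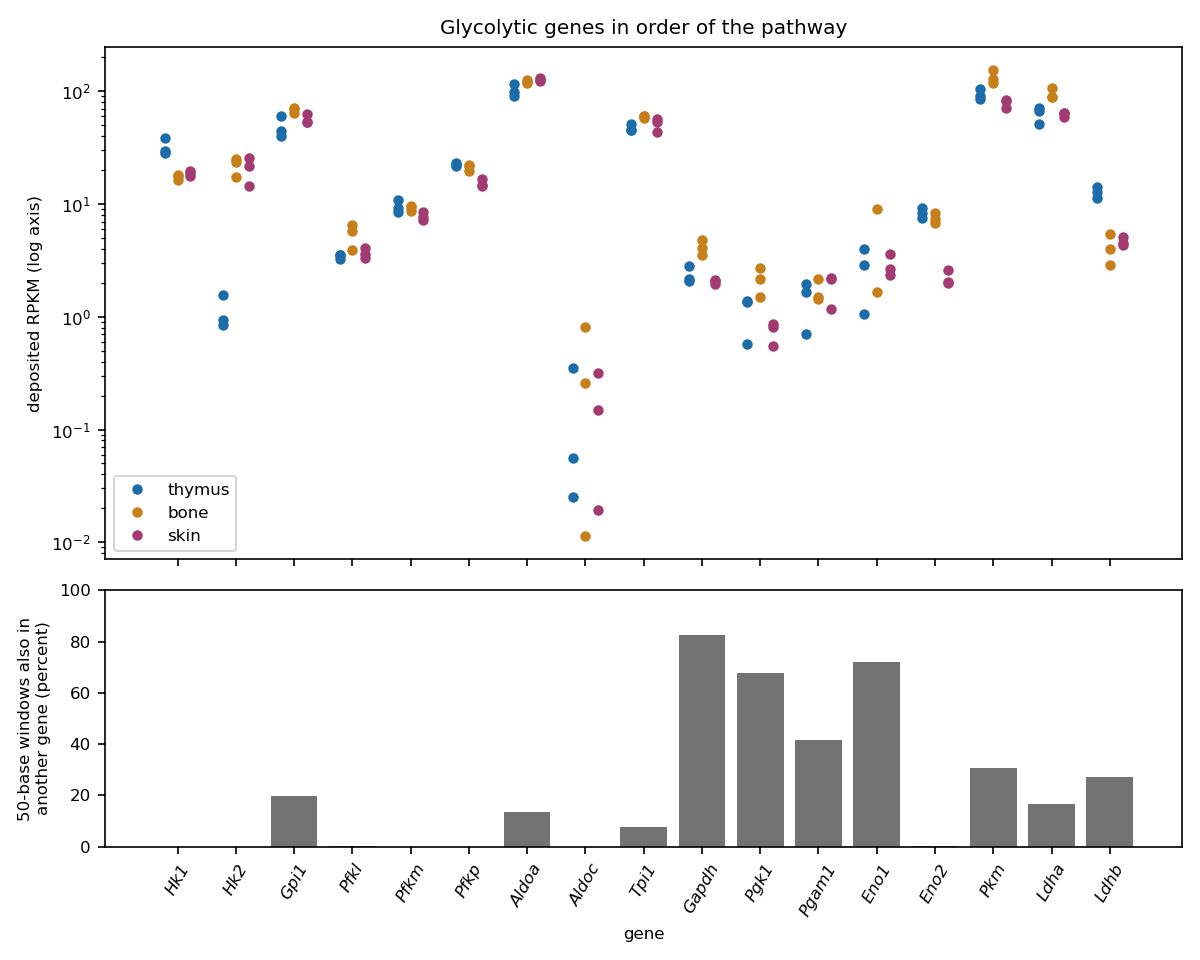
Upper panel, deposited RPKM on a log axis of 17 glycolytic genes in pathway order, 1 point per library (an RPKM of 0 is not drawn); lower panel, percent of the 50-base windows of each gene's longest coding transcript that also occur in a transcript of another gene. Gapdh, Pgk1, Pgam1 and Eno1 lie well below Aldoa, Tpi1 and Pkm and have shared windows of 41.5 to 82.5%. For Eno1 the counted entry was much shorter than the transcript used for the windows.

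Eno2, the neuronal enolase, is also a HIF target and the second enolase among the 38 genes. It stood at 19.4, 20.7 and 24.2 CPM in thymus, 22.2, 16.2 and 18.8 in bone and 6.93, 7.87 and 9.63 in skin. All skin libraries were below all thymus and bone libraries, which overlapped. Thymus exceeded skin by 1.40 ± 0.19 on the log2 scale (adjusted p = 0.000153) and bone exceeded skin by 1.23 ± 0.19 (adjusted p = 0.000291). Pkm, pyruvate kinase of muscle and most other tissues, averaged 239 ± 32.7 CPM in thymus, against 341 ± 44.9 in bone and 295 ± 29.4 in skin (SD, n = 3). It was lower in thymus than in bone at -0.51 ± 0.15 (adjusted p = 0.0226), a call lost without thymus library 2 or 3 or bone library 3.

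Lactate and pyruvate genes were called lower in thymus in 5 of 6 cases against each other tissue. The remaining gene, Ldhb, was called higher. Over all genes tested, 16.1% were lower and 16.5% higher in thymus than in bone, and 18.3% and 19.3% than in skin. Some of these calls were lost in alternatives, as given below. Ldha, the dehydrogenase subunit that favours lactate formation, stood at 126, 130 and 101 CPM in thymus, 170, 163 and 203 in bone and 159, 186 and 177 in skin. Thymus libraries were below all others. The log2 difference was -0.58 ± 0.14 against bone (adjusted p = 0.00835) and -0.55 ± 0.14 against skin (adjusted p = 0.0101), the last of which was 0.091 and not called with library size alone.

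Ldhb, the subunit that favours lactate use (chromosome 6, 142490249 to 142507943), stood at 14.3, 17.4 and 16.7 CPM in thymus, 5.19, 6.65 and 3.67 in bone and 9.16, 8.46 and 8.30 in skin. The 3 tissues did not overlap, with thymus highest and bone lowest. Thymus exceeded bone by 1.64 ± 0.24 (adjusted p = 0.000259) and skin by 0.90 ± 0.23 (adjusted p = 0.00975). The call of thymus above skin was lost with the replicate block. Bone was below skin at -0.74 ± 0.23 (adjusted p = 0.0218), a call lost without bone library 3 or skin library 1 or 2 and with library size alone. It was also lost with RPKM and with only the 2 tissues compared. Ldha made up 83.1 ± 2.73% of the RPKM of both genes in thymus, 95.8 ± 1.57% in bone and 93.1 ± 0.872% in skin (SD, n = 3), and its shares did not overlap between tissues (exact permutation test, p = 0.00357, adjusted p = 0.00982). Windows found in other genes made up 27.0% of Ldhb and 16.6% of Ldha.

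Slc16a1, the broadly expressed transporter of lactate and pyruvate (chromosome 3, 104638668 to 104658462), stood at 23.9, 34.6 and 23.2 CPM in thymus, 89.7, 77.9 and 93.5 in bone and 175, 171 and 148 in skin. The tissues were fully separated in that order. The log2 difference in thymus was -1.68 ± 0.17 against bone (adjusted p = 1.60e-05) and -2.60 ± 0.17 against skin (adjusted p = 6.02e-07). Bone was below skin at -0.92 ± 0.16 (adjusted p = 0.000727), a call lost with library size alone.

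Slc16a3, the lactate exporter of glycolytic cells and a HIF target (chromosome 11, 120948484 to 120959000), stood at 2.40, 6.27 and 4.11 CPM in thymus, 31.3, 29.5 and 34.6 in bone and 34.4, 31.8 and 12.6 in skin. All thymus libraries were below all others, and skin library 3 was lower than the other skin libraries. Thymus was lower by -2.90 ± 0.42 against bone (adjusted p = 0.000511) and by -2.62 ± 0.42 against skin (adjusted p = 0.000752). The share of Slc16a1 in the pair ran from 76.3 to 83.7% in thymus, against 60.6 to 62.6% in bone and 74.7 to 87.1% in skin, with an adjusted p of 0.0655 by the exact permutation test.

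Pyruvate dehydrogenase kinases keep pyruvate out of the citric acid cycle. Pdk4, induced by fasting and fatty acids in other tissues, stood at 11, 9.45 and 8.75 CPM in thymus, 18.4, 24.1 and 18.2 in bone and 24.9, 16.7 and 41.5 in skin. Thymus libraries were the lowest, and bone and skin overlapped. Thymus was lower by -1.06 ± 0.28 against bone (adjusted p = 0.0136) and by -1.51 ± 0.28 against skin (adjusted p = 0.00139). The call against bone was lost without thymus library 1-3 or bone library 2 and with the replicate block. Pdk1, a HIF target, averaged 16.8 ± 1.18, 23.3 ± 1.55 and 25.4 ± 4.89 CPM in thymus, bone and skin. Its calls in thymus, at -0.47 ± 0.17 against bone (adjusted p = 0.0458) and -0.60 ± 0.17 against skin (adjusted p = 0.0138), were kept in 7 and 13 of 19 alternatives. The share of Pdk1 in the pair had an adjusted p of 0.0786 by the exact permutation test.

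Epas1 and Egln3 were highest in thymus and lowest in skin, whereas Hif1a and Egln1, the other oxygen-sensing genes, were not called between those tissues on the TMM scale. Without the TMM factor Egln1 was called higher in thymus than in skin, with library size alone and with RPKM. In RPKM, Egln1 ran from 19.1 to 20.4 in thymus and from 12.3 to 15.1 in skin. Hif1a ran from 28.8 to 31.6 in thymus and from 20.5 to 27.9 in skin. Epas1, which encodes the HIF alpha subunit best known from endothelium and perivascular cells (chromosome 17, 86753864 to 86833410), stood at 384, 295 and 367 CPM in thymus, 114, 85.6 and 71.4 in bone and 6.52, 11.9 and 15.3 in skin. The tissues were fully separated, with thymus highest. Thymus exceeded bone by 1.95 ± 0.28 on the log2 scale (adjusted p = 0.000422) and skin by 4.96 ± 0.33 (adjusted p = 1.33e-06), and bone exceeded skin by 3.01 ± 0.30 (adjusted p = 1.96e-05).

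Hif1a, the widely expressed alpha subunit (chromosome 12, 73907867 to 73947530), varied much less. It stood at 136, 133 and 153 CPM in thymus, 211, 200 and 300 in bone and 185, 148 and 162 in skin. Bone was above the other tissues, which overlapped. Thymus was lower than bone at -0.75 ± 0.17 (adjusted p = 0.0048), and bone exceeded skin by 0.52 ± 0.17 (adjusted p = 0.023), a call lost without bone library 3 or skin library 2. Hif1a made up 31.4 ± 2.66% of the RPKM of both subunits in thymus, 74.3 ± 7.59% in bone and 94.2 ± 2.49% in skin (SD, n = 3). The shares did not overlap between tissues (exact permutation test, p = 0.00357, adjusted p = 0.00982).

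Egln3, a prolyl hydroxylase that is itself a HIF target (chromosome 12, 54178981 to 54203874), stood at 70.8, 63.8 and 71.7 CPM in thymus, 6.12, 21.6 and 8.92 in bone and 1.21, 2.21 and 3.39 in skin. The tissues were separated in the same order as for Epas1, with bone library 2 above the other bone libraries. Thymus exceeded bone by 2.49 ± 0.47 (adjusted p = 0.00296) and skin by 4.92 ± 0.54 (adjusted p = 7.45e-05), and bone exceeded skin by 2.43 ± 0.49 (adjusted p = 0.00256). Egln1, the main oxygen sensor among the prolyl hydroxylases, averaged 68.9 ± 2.26, 49.2 ± 7.52 and 71.0 ± 9.51 CPM in thymus, bone and skin. It was higher in thymus than in bone by 0.49 ± 0.15 (adjusted p = 0.0236), a call lost without thymus library 2 or 1-3 or bone library 3. Bone was below skin at -0.53 ± 0.15 (adjusted p = 0.0106), which was 0.16 and not called with library size alone and was also lost without bone library 3 or skin library 2. Egln1 took 43.3 ± 1.19% of the RPKM of both hydroxylases in thymus, 76.4 ± 11.2% in bone and 95.9 ± 2.31% in skin (SD, n = 3), with no overlap (exact permutation test, p = 0.00357, adjusted p = 0.00982).

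Cell types known for Epas1 were looked at beside these values. Sums of 8 endothelial markers were 140 to 243 CPM in thymus, against 80.2 to 94.9 in bone and 263 to 360 in skin. All 8 endothelial markers had reads in every tissue. Of the endothelial markers, 3 were called higher and 2 lower in thymus against skin, and 3 higher and 1 lower in thymus against bone. Tek, an angiopoietin receptor, made up most of the skin sum at 236 CPM on average, against 44.4 in thymus, whereas Plvap, of fenestrated endothelium, averaged 100.3 CPM in thymus and 20.1 in skin. Sums of 8 mural markers were 950 to 1303 CPM in thymus, against 401 to 410 in bone and 56.7 to 136 in skin. None of the 8 was at 0 in any tissue. Of the mural markers, 6 were called higher in thymus than in skin and none lower, and 4 higher and 2 lower in thymus than in bone. Des, the muscle-type intermediate filament and one of these markers, averaged 691 ± 140 CPM in thymus and 12.6 ± 4.30 in bone, whereas Cspg4, a pericyte proteoglycan, averaged 23.8 ± 3.28 in thymus and 212 ± 19.9 in bone (SD, n = 3). The part of endothelial or mural cells in the levels of Epas1 and Egln3 was not tested.

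**Figure D4:**
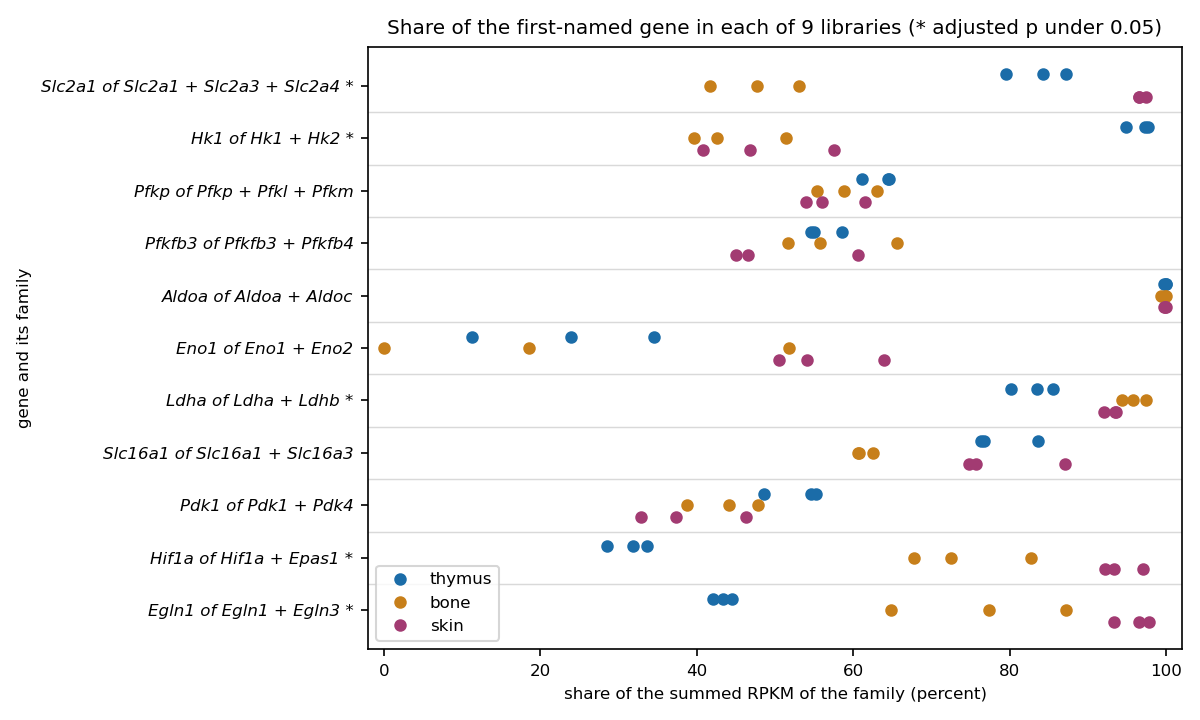
Share of the first-named gene in the summed RPKM of its family (horizontal axis, percent) in each of 9 libraries, for 11 families; colours give the tissue and an asterisk an adjusted p under 0.05 by the exact permutation test. The 5 families with an asterisk are led by Slc2a1, Hk1, Ldha, Hif1a and Egln1, and Hif1a runs from 31.4% in thymus to 94.2% in skin on average.

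The other HIF targets did not share 1 order of the tissues. Of the 6 genes, none was called higher and 2 lower in thymus than in bone. In thymus against skin 2 were higher and 2 lower, and in bone against skin 3 and 1. Over all genes tested, 16.5% were higher and 16.1% lower in the first comparison, 19.3% and 18.3% in the second. In the third the shares were 23.7% and 23.4%, so counts out of 6 genes say little about the group. Bnip3, a mitophagy receptor (chromosome 7, 138890836 to 138909506), stood at 6.86, 5.36 and 3.63 CPM in thymus, 24.4, 37.0 and 25.0 in bone and 8.34, 11.5 and 15.8 in skin. Bone was highest and thymus lowest with no overlap. Thymus was below bone at -2.44 ± 0.30 (adjusted p = 8.01e-05) and below skin at -1.17 ± 0.29 (adjusted p = 0.00786), the last lost with library size alone, and bone exceeded skin by 1.28 ± 0.29 (adjusted p = 0.00359). Windows also found in other genes made up 48.9% of the Bnip3 transcript, so its level is uncertain.

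Ndrg1, a stress-responsive gene of differentiation (chromosome 15, 66929318 to 66969641), stood at 202, 175 and 190 CPM in thymus, 158, 110 and 206 in bone and 41.2, 70.3 and 88.5 in skin. Skin libraries were below all others, and thymus and bone overlapped. Thymus exceeded skin by 1.5 ± 0.28 (adjusted p = 0.00171) and bone exceeded skin by 1.24 ± 0.28 (adjusted p = 0.00406). Ddit4, an inhibitor of mTORC1 induced by stress and low oxygen (chromosome 10, 59949675 to 59951770), stood at 21.2, 24.3 and 11.6 CPM in thymus, 25.9, 30.6 and 22.9 in bone and 4.58, 6.4 and 9.49 in skin. Skin was again the lowest, and thymus and bone overlapped. The log2 difference was 1.48 ± 0.31 in thymus against skin (adjusted p = 0.00285) and 1.95 ± 0.31 in bone against skin (adjusted p = 0.000388).

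Car12, a membrane carbonic anhydrase that handles acid outside the cell (chromosome 9, 66713686 to 66766845), stood at 0, 0.469 and 0.382 CPM in thymus, 6.14, 3.80 and 6.08 in bone and 49.5, 31.6 and 24.8 in skin. The tissues were fully separated, with skin highest. The fitted log2 difference in thymus was -4.24 ± 0.79 against bone (adjusted p = 0.00265) and -6.96 ± 0.87 against skin (adjusted p = 0.000188), and bone was below skin at -2.73 ± 0.70 (adjusted p = 0.00965). Car9, the related enzyme used as a marker of hypoxia in tumours, reached at most 0.571 CPM in thymus, at most 1.19 in bone and at most 0.0562 in skin, and was at 0 in 3 of 9 libraries. Ankrd37, an ankyrin repeat gene induced by HIF, averaged 0.366 ± 0.156, 1.5 ± 1.14 and 0.611 ± 0.0905 CPM in thymus, bone and skin. Neither Car9 nor Ankrd37 was called in any comparison.

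The fructose bisphosphatases, which run the phosphofructokinase step backwards, were seen mainly in skin. Fbp1, the form of liver and kidney, was at 0 CPM in all thymus libraries, at 0.971, 0 and 0.260 in bone and at 2.55, 1.55 and 6.89 in skin. Skin libraries were above all others. Against a floor of 3 reads over the 3 thymus libraries, thymus was at least 433-fold lower than skin (adjusted p = 0.00475) and at least 45.1-fold lower than bone (adjusted p = 0.0216). The call against bone was lost without bone library 1, without any of the thymus libraries and with the replicate block. Fbp2, the muscle form, was at 0 in thymus and bone and at 0.157, 0.440 and 0.415 CPM in skin, from 14, 30 and 36 reads. It was at least 37.3-fold lower in thymus against skin (adjusted p = 0.0392) and at least 34.2-fold lower in bone against skin (adjusted p = 0.0338). Leaving out any 1 library of the tissues compared ended either call, and so did the replicate block. The call of thymus against skin was also lost with no filter. Fbp2 had reads in skin alone and so passed the filter on low counts only through skin. Fbp1 also passed it through skin, since bone library 2 and all thymus libraries were at 0. The calls of both genes are therefore no independent support for a difference. Skeletal muscle markers were also highest in skin, as given above, and keratinocyte markers summed to 128 to 371 CPM in skin, 21.4 to 27.8 in thymus and 2.72 to 4.20 in bone. The part of these cells in the levels of Fbp1 and Fbp2 was not tested.

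Other genes of the same pathways were taken from lists by function, also chosen with earlier results of these data known. Their counts stand beside the same shares of all genes tested, 16.5% higher and 16.1% lower in thymus against bone, 19.3% and 18.3% in thymus against skin, and 23.7% and 23.4% in bone against skin, and several lie near them. Of 20 further glycolysis isoforms tested, none was higher and 5 were lower in thymus than in bone, 2 were higher and 7 lower in thymus than in skin, and 4 were higher and 2 lower in bone against skin. Their median log2 differences were -0.64, 0.21 and 0.55. Slc2a12, another glucose transporter, averaged 0.475 ± 0.103 CPM in thymus, against 9.91 ± 2.82 in bone and 6.97 ± 2.28 in skin, and thymus was lower at -4.38 ± 0.38 against bone (adjusted p = 5.95e-06) and -3.87 ± 0.37 against skin (adjusted p = 9.40e-06). Adpgk, a glucokinase that uses ADP, was highest in bone, at 61.4 ± 7.56 CPM against 23.9 ± 1.94 in thymus (adjusted p = 2.29e-05) and 36.0 ± 3.49 in skin (adjusted p = 0.000869).

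Of 11 other regulators of the HIF pathway, 2 were higher and 3 lower in thymus than in bone, 2 higher and 3 lower in thymus than in skin, and 2 higher and 4 lower in bone against skin. Arnt2, a partner of HIF alpha subunits known from neurons, averaged 13.6 ± 3.78 CPM in thymus, against 34.4 ± 3.25 in bone and 4.88 ± 0.679 in skin, and bone exceeded skin by 2.82 ± 0.23 (adjusted p = 2.75e-06). Siah2, a ubiquitin ligase that acts on prolyl hydroxylases including the Egln3 product, averaged 8.08 ± 0.53, 25.6 ± 2.36 and 10.6 ± 0.944 CPM and was higher in bone than in thymus (adjusted p = 1.72e-05) and skin (adjusted p = 8.00e-05). Cited2, which competes with HIF for its coactivator, averaged 21.4 ± 5.41, 45.5 ± 2.55 and 79.1 ± 16.4 CPM in thymus, bone and skin, and thymus was lower than skin at -1.89 ± 0.20 (adjusted p = 1.73e-05).

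Of 27 other HIF targets tested, 2 were higher and 10 lower in thymus than in bone, 4 higher and 10 lower in thymus than in skin, and 6 higher and 9 lower in bone against skin. P4ha2, a collagen prolyl hydroxylase subunit, averaged 76.3 ± 1.59 CPM in thymus, against 71.8 ± 7.23 in bone and 423 ± 108 in skin, with log2 differences from skin of -2.47 ± 0.19 (adjusted p = 1.52e-06) and -2.56 ± 0.19 (adjusted p = 1.25e-06). P4ha1, its paralogue, averaged 158 ± 14.5, 117 ± 10.1 and 299 ± 8.08 CPM. Angptl4, an inhibitor of lipoprotein lipase, averaged 49.3 ± 10.1, 52.8 ± 15.3 and 223 ± 8.41 CPM. These genes had skin highest, where Slc2a1 was highest too but Ndrg1 and Ddit4 lowest. Collagen reads were also highest in skin, as given above. Plod1, a collagen lysyl hydroxylase, was highest in thymus, at 471 ± 47.8 CPM against 167 ± 9.5 in bone (adjusted p = 9.54e-06) and 296 ± 31.6 in skin (adjusted p = 0.00221).

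Of 12 genes of pyruvate dehydrogenase and the mitochondrial carrier, 1 was higher and 1 lower in thymus than in bone, 1 higher and 2 lower in thymus than in skin, and 2 higher and 3 lower in bone against skin. Of 8 pentose phosphate genes, 1 was higher and 1 lower in thymus than in bone, 1 higher and 5 lower in thymus than in skin, and none higher and 5 lower in bone against skin. H6pd, which makes NADPH inside the endoplasmic reticulum, averaged 404 ± 72.9 CPM in thymus, against 52.8 ± 5.19 in bone and 126 ± 14.9 in skin. Thymus exceeded bone by 2.94 ± 0.17 (adjusted p = 3.45e-07) and skin by 1.68 ± 0.16 (adjusted p = 9.76e-06). Pgd, of the cytosolic route, ran from 72.1 ± 7.28 in thymus to 99.9 ± 12.6 in bone and 167 ± 10.9 CPM in skin, and was lower in thymus than in skin at -1.21 ± 0.14 (adjusted p = 2.81e-05).

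Of 13 glycogen genes, 1 was higher and 5 lower in thymus than in bone, 2 higher and 7 lower in thymus than in skin, and 4 higher and 4 lower in bone against skin. Ugp2, which makes UDP-glucose, averaged 83.7 ± 10.4 CPM in thymus, against 304 ± 61.8 in bone and 213 ± 12.2 in skin, lower in thymus at -1.86 ± 0.17 against bone (adjusted p = 6.98e-06) and -1.35 ± 0.16 against skin (adjusted p = 5.55e-05). Pygm, the muscle form of glycogen phosphorylase, was higher in thymus, at 20.4 ± 3.50 CPM against 7.74 ± 2.83 in bone (adjusted p = 0.0139) and 2.45 ± 1.24 in skin (adjusted p = 0.000114). Of 6 other gluconeogenesis genes, 1 was higher and 1 lower in thymus than in bone, none higher and 1 lower in thymus than in skin, and 1 higher and 1 lower in bone against skin. Pck2, the mitochondrial form of the enzyme that makes phosphoenolpyruvate from oxaloacetate, averaged 39.4 ± 3.07, 27.1 ± 2.30 and 56.5 ± 6.08 CPM in thymus, bone and skin (bone against skin, adjusted p = 6.63e-05). With library size alone, 36 genes of these lists were higher and 14 lower in thymus than in skin, in place of 12 and 35, and 49 higher and 8 lower in bone against skin, in place of 19 and 28.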

How the data were processed

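Read counts per gene and RPKM were deposited by the authors for each of the 9 libraries, in whole reads per gene symbol and in reads per kilobase scaled by library size, the latter with mm10 coordinates. CASAVA 1.8.2, HTSeq 0.5.4 and mm10 are listed in the submitters' processing notes. The aligner, the annotation and whether counting used strand are not stated in any source used here. Summary lines, 5.05 to 14.8% of the count tables, were left out.

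The quasi-likelihood test of edgeR 4.0.16 (R 4.3.3, robust) was run on the counts after TMM scaling and filterByExpr by tissue, with all libraries in 1 fit and Benjamini-Hochberg adjustment over all 15635 genes. Standard errors were worked back from the F statistic and are approximate. Shares within 11 gene families were computed from RPKM and tested by exact permutation over 1680 arrangements, of which the smallest p is 0.00357. Shared sequence was counted as exact 50-base windows in GENCODE M21 transcripts. For a group without reads, a floor of 3 reads over the group was used. The programs were tested on simulated data.

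Members and lists were chosen with earlier results of these data known. All 38 members could be named, with every library's value for those called at 2-fold or more; of each other list, up to 4 genes with the smallest adjusted p. Replicate libraries differed by a chi-square of 96.3 to 306.5 per degree of freedom, so none was counted as a copy. Alternatives were library size only, upper quartile or RLE factors, no filter, 1 CPM in 3 libraries, DESeq2 1.42.0, limma 3.58.1 on log2 of the deposited RPKM plus 1 or 0.1, a replicate block, only the tissues compared, and each library left out.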

Additional observations from a re-analysis of the deposited data

How the results depend on the processing

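Of 60 calls of members, 34 kept direction and threshold in every alternative that could be run, and 6 called ones changed sign in some. The largest changes came with library size alone and with RPKM, which carry no composition factor: members in thymus against skin were 12 higher and 8 lower with library size alone, 9 higher and 7 lower with RPKM plus 1, and 10 higher and 7 lower with RPKM plus 0.1. In bone against skin they were 20 higher and 3 lower with library size alone, 16 and 2 with RPKM plus 1, and 15 and 2 with RPKM plus 0.1. Genes of the other lists with library size alone were 36 higher and 14 lower in thymus against skin and 49 higher and 8 lower in bone against skin. With library size alone, log2 differences of bone against skin turned to 0.041 for Hk1, 0.45 for Gpi1, 0.67 for Pfkl, 0.37 for Pfkm, 0.60 for Pfkp, 0.065 for Aldoa, 0.34 for Tpi1, 0.56 for Pdk1 and 0.16 for Egln1, and those of thymus against skin to 0.52 for Pfkfb3, 0.091 for Ldha, 0.033 for Pdk1 and 0.59 for Egln1. With RPKM plus 1 and plus 0.1 they turned to 0.43 and 0.51 for Pfkl, 0.44 and 0.46 for Pfkp, 0.21 and 0.22 for Tpi1 and 0.0077 and 0.0077 for Egln1 in bone against skin, and to 0.0014 and 0.0012 for Ldha and 0.49 and 0.51 for Egln1 in thymus against skin. Egln1, not called between thymus and skin in the main fit, was called higher in thymus on each of these scales. Member calls lost with library size alone were also lost with RPKM, except that of Aldoa in thymus against skin. These scales lack the TMM factor by construction.

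Libraries with the same number correlated at -0.0326 to 0.0755 in their deviations from the tissue mean. No shared effect of the number was seen, but this cannot show whether such libraries came from the same animals. With the replicate block, 10 members were lower in thymus than in bone in place of 16. The block sets thymus library 1-3 aside, since no other library holds that number, and leaves less data to estimate the spread. Calls lost with it cannot be put down to library number alone. Leaving out 1 library gave 9 to 17, the lowest without thymus library 2, and for bone lower than skin 5 to 9, the lowest without bone library 3, in place of 9. Leaving out members with 40% or more of their windows elsewhere, an alternative chosen after seeing the data, left 5 higher and 15 lower in thymus than in bone, 6 and 14 in thymus against skin, and 8 and 9 in bone against skin. Fbp2, Car9, Aldoc and Eno1 rest on few reads, and differences there were not detectable at this depth unless called.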
